A study of Mus musculus with 12 samples.

Results

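All 38 genes described here carry cells from G1 into S phase and copy their DNA, and they were listed by name and role, with earlier results of these data known, from the 38293 genes of the deposited table. They comprise the MCM helicase core, the proteins that recognise and license origins, the factors that switch the helicase on, the clamp and its loader, polymerases and primase, Okazaki fragment enzymes, nucleotide synthesis enzymes, regulators of the G1 to S transition, and factors that rebuild chromatin behind the fork. RNA was measured in ventricles of mouse embryos at E15.5, in 3 pools for each of 4 genotypes, with 4 pairs of ventricles in a pool. The Mib1 mutant carried a stop allele over a floxed allele together with a Cre driver (Mib1_R530X/Mib1_flox; Tnnt2-Cre/+), and the Cre control carried the floxed allele over a wild-type allele with the same driver (Mib1_flox/+; Tnnt2-Cre/+). The triple heterozygote carried 1 copy each of Mib1_R530X, Asxl3_M1415V and Apcdd_V150I, the second of which the study's design text writes as M1361V, and it had no Cre. The WT pools carried none of these alleles. Tnnt2-Cre acts in cardiomyocytes, so the floxed allele recombines in those cells, while the stop allele is present in every cell of the embryos that carry it. The Mib1 mutant is set against the Cre control, and the triple heterozygote against WT.

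DNA replication starts in G1, when the origin recognition complex, Cdc6 and Cdt1 load rings of the 6 MCM proteins onto DNA. Cyclin E with its kinase then drives entry into S phase, Cdc45, the GINS complex and Mcm10 turn the loaded rings into active helicases, and polymerases copy both strands behind a sliding clamp. Transcription of many of these genes depends on E2F factors, which the retinoblastoma proteins hold in check until late G1. Fetal cardiomyocytes still divide at this stage. Mib1 is a ubiquitin ligase that acts in cells presenting Notch ligands and is needed for Notch signalling in the developing ventricle.

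The promoters are shown first because E2F-type letters were found in a larger share of these genes (40.6%) than of all genes (2.6%). Most of the genes with a promoter window did not hold them. RefSeq promoter windows on GRCm38.p6, running from 250 bases before to 50 bases after the annotated start, were found for 32 of the 38 genes. They were searched on both strands for TTTGGCGC, TTTGCCGC, TTTCGCGC and TTTCCCGC, together called E2F-type, for CCAAT, and for TTTGAA, the core of the cell cycle homology region (CHR) known from mitotic genes. The 250 bases before the start are printed for Mcm5 (chr8:75109259-75109508, plus strand), Mcm6 (chr1:128359706-128359955, minus strand), Cdc6 (chr11:98907901-98908150, plus strand) and Orc1 (chr4:108579204-108579453, plus strand), a pair of helicase subunits and a pair of origin factors that hold the letters at different distances. A gene with several windows was counted once. Each sequence is written 5′ to 3′ along the gene, and capitals mark E2F-type matches on either strand.
Mcm5: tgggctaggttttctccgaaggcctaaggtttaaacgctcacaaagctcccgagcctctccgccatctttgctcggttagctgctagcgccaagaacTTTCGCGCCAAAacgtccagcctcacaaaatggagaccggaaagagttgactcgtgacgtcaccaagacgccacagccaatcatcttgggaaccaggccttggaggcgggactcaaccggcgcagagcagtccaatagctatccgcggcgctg
Mcm6: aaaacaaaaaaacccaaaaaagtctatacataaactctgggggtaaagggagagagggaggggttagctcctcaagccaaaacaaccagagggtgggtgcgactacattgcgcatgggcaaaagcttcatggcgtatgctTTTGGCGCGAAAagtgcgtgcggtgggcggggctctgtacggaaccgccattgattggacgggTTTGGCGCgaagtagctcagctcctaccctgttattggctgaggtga
Cdc6: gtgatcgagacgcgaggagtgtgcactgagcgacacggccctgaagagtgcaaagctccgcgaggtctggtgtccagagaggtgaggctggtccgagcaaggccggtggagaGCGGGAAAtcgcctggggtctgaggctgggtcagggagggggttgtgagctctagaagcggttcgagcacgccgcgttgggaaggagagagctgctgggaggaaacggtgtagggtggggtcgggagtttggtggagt
Orc1: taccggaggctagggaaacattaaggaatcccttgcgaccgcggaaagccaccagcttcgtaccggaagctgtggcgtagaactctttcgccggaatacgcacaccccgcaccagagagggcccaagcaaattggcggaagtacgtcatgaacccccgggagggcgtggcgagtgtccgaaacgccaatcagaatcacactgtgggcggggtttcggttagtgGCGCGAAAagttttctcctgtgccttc
Mcm6 held 3 matches, beginning 110, 106 and 47 bases before the start, the first pair of which overlap. Mcm5 held 2 overlapping matches that began 153 and 149 bases before the start. The single match lay 138 bases before the start in Cdc6 and 27 bases before it in Orc1. E2F-type letters were found in 13 of the 32 genes (40.6%), against 2 of 26 mitotic genes (7.69%) and 704 of all 27025 genes in the promoter table (2.6%). The 13 were Cdc6, Cdt1, Gins3, Lig1, Mcm3, Mcm5, Mcm6, Mcm7, Orc1, Pola1, Pold1, Rfc3 and Uhrf1. CCAAT was found in 59.4% of the replication genes, 76.9% of the mitotic genes and 41.1% of all genes, and the CHR letters in 12.5%, 76.9% and 20.2% of those 3 sets. In the shorter window from 150 bases before the start, the CHR shares of replication genes and of all genes were alike (12.5% and 12.8%), while those of E2F-type letters were 37.5% and 1.91%. These are matches of letters in a window, not measurements of binding.

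**Figure D1:**
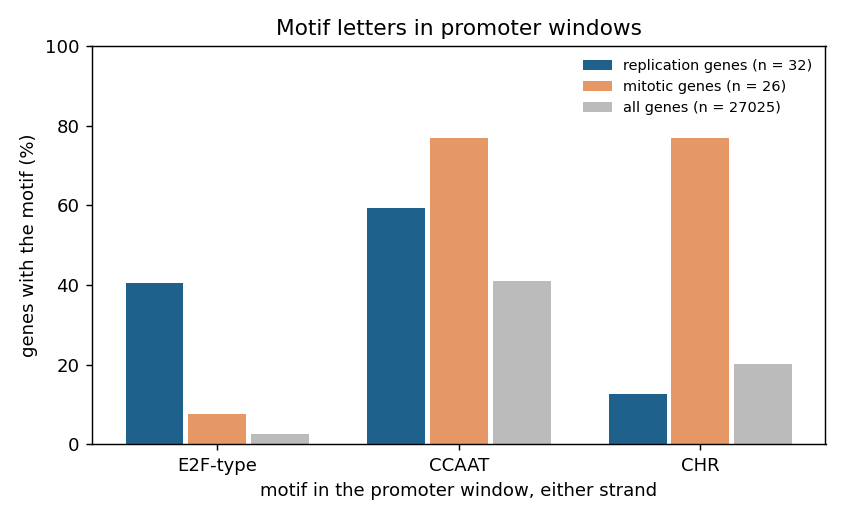
Share of genes (percent, vertical axis) whose promoter window holds E2F-type, CCAAT or CHR letters on either strand, for 32 replication genes, 26 mitotic genes and all 27025 genes of the promoter table. E2F-type letters were found in 40.6% of the replication genes, and CHR letters in 76.9% of the mitotic genes.

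Library totals ranged from 10103548 to 22157720 estimated counts, so that 1 read was worth 0.0452 to 0.0991 CPM (counts per 1000000). All 38 genes were among the 13964 that passed the filter on low counts. Mib1 transcripts fell by 1.01 on the log2 scale in Mib1 mutant ventricles relative to the Cre control (adjusted p = 4.75e-05), and by 0.99 in the triple heterozygote relative to WT (adjusted p = 0.000276; edgeR quasi-likelihood F test, Benjamini-Hochberg adjusted over all genes tested). The 6 cardiomyocyte markers were present in every pool, at a summed 32914 to 40594 CPM in the Mib1 mutant, 39976 to 44937 in the Cre control, 40010.0 to 44742 in the triple heterozygote and 41202 to 42954 in WT. Mib1 mutant replicate 1 stood apart from the other pools on the replication genes. For the 38 genes, medians and counts by sign and by p that rest on it are given with and without it. Intervals, spreads, overlap counts, fold changes of single genes and values of other lists are given only with it. It had the lowest cardiomyocyte sum and the highest endothelial and endocardial sum of the 12 pools (32914 and 1053 CPM). It was also 1 of 2 pools whose Y-linked genes outweighed Xist by a wide margin, by 7.66 on the log2 scale against 7.37 in Cre control replicate 1 and -3.0 to 1.29 in the other pools. The part of cell makeup and sex in the results was not tested. In such bulk RNA, fewer dividing cells and less RNA per dividing cell cannot be told apart.

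Levels per length, as CPM per kilobase of the principal transcript averaged over the 12 pools, spanned from 1.54 for Orc1 to 129.8 for Pcna. Pcna, the sliding clamp, ranged from 98.8 to 149.5 CPM per kilobase over the pools. Rrm2 (97.6) and Rrm1 (66.4), the subunits of ribonucleotide reductase, came next, then Mcm6 (54.5). The ranges of these neighbours overlapped across pools, although within each of the 12 pools Pcna lay above Rrm2, Rrm2 above Rrm1, and Rrm1 above Mcm6. The MCM proteins join in equal numbers in the ring, but their transcripts differed in level per length, from Mcm6 through Mcm7 (44.9), Mcm3 (36.6), Mcm2 (33.5) and Mcm4 (29.5) to Mcm5 (25.4). That order held in 12 of 12 pools for each step except Mcm4 above Mcm5, which held in 11. Among the licensing proteins, Orc6 (21.6), a subunit of the origin recognition complex, lay above Cdt1 (15.8) and Cdc6 (8.5), and Orc1, the complex's largest subunit, lay below all 3. Orc1 rested on 29 to 91 reads per pool. Gins1 (15.1), a GINS subunit, and Cdc45 (14.3) did not keep an order, with Gins1 above in 7 of 12 pools. Prim1, the catalytic subunit of primase, led the polymerase group (21.2), Lig1, the ligase that seals Okazaki fragments, lay above the flap nuclease Fen1 (25.4 and 15.1), and Uhrf1, which guides methylation of newly made DNA, led the chromatin group (28.6). E2f1, the transcription factor of the group, lay at 14.2, with cyclins Ccne2 at 13.4 and Ccne1 at 10.5 CPM per kilobase. These levels rest on 1 transcript model per gene. A further limit is that 14 of the 38 genes share exonic bases with a gene on the opposite strand. Whether counting used strand is not given in the sources used here, so values for Mcm7, Orc1, Orc6, Cdc45, Gins2, Rfc2, Rfc4, Rfc5, Pole, Fen1, Lig1, Tk1, Ccne2 and Chaf1a are uncertain.

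**Figure D2:**
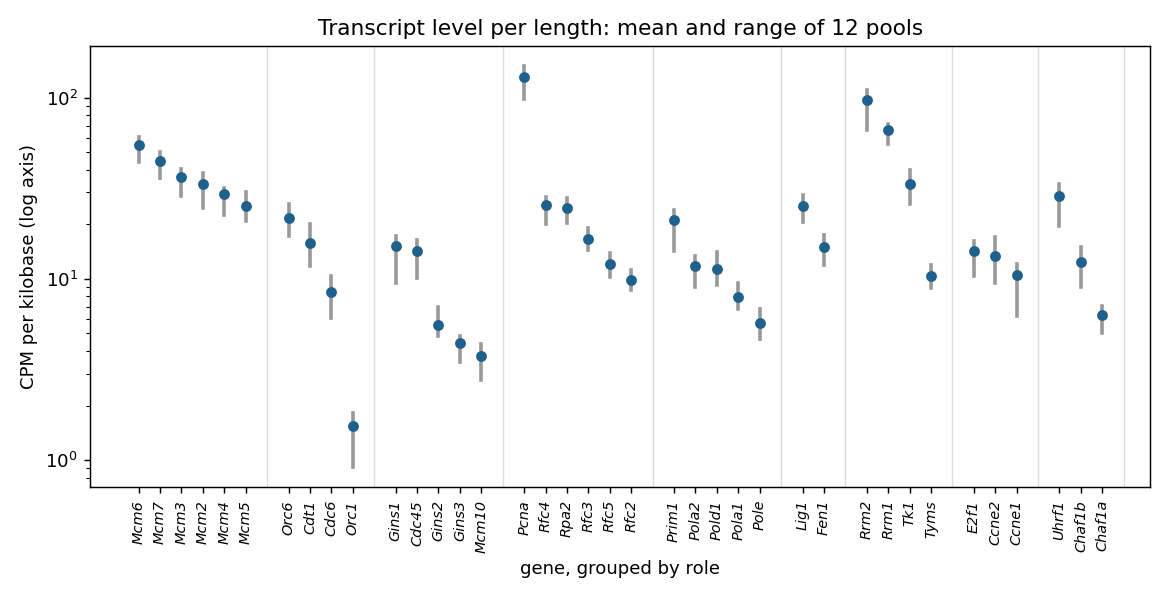
Transcript level per length (CPM per kilobase, log axis) of the 38 genes, grouped by role, with points for the mean and lines for the range over 12 pools. Pcna averaged 129.8 and Orc1 1.54 CPM per kilobase.

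In Mib1 mutant ventricles, none of the 38 genes passed the test against the Cre control at an adjusted p of 0.05 (edgeR), where 1.5% of all genes tested did. DESeq2 and limma-voom likewise called 0. At an unadjusted p under 0.05, edgeR had 0 genes higher and 1 lower (Prim1), beside 7.35% and 6.65% of all genes. The fitted values were positive for 11 genes and negative for 27, with a median log2 fold change of -0.05 beside 0.00 over all genes. The 95% interval excluded a 1.5-fold change in either direction for 36 of 38 genes. These intervals use 1 spread per gene shared by all 4 groups. The 38 genes varied most in the Mib1 mutant (median coefficient of variation 18.2%, against 4.46% to 6.61% in the other groups). The intervals can therefore be too narrow for the Mib1 mutant. Prim1 was also the only gene whose pools did not overlap (1 of 38 lower and 0 higher, beside 7.75% and 8.86% of all genes).

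Prim1 had 22.7, 32.3 and 32.7 CPM in the Mib1 mutant pools, against 34.9, 33.5 and 37.4 CPM in the Cre control pools. All 3 Mib1 mutant values lay below all 3 Cre control values, and replicate 1 lay furthest below (log2 fold change -0.27, SE 0.11, adjusted p = 0.281). Gins1 had 10.4, 18.0 and 14.1 CPM in the Mib1 mutant pools, against 16.8, 18.2 and 18.7 CPM in the Cre control pools. The Mib1 mutant range spanned both sides of the lowest Cre control pool (log2 fold change -0.34, SE 0.17, adjusted p = 0.385). Rfc4, a subunit of the clamp loader, had 24.7, 31.5 and 31.5 CPM in the Mib1 mutant pools, against 34.9, 33.8 and 31.0 CPM in the Cre control pools. Mib1 mutant replicates 2 and 3 lay inside the Cre control range (log2 fold change -0.18, SE 0.09, adjusted p = 0.419). Rrm2 had 145, 207 and 210.2 CPM in the Mib1 mutant pools, against 212, 217 and 208 CPM in the Cre control pools. Its first Mib1 mutant pool was low and the other pools lay close together (log2 fold change -0.18, SE 0.11, adjusted p = 0.493). Pcna had 150.03, 204 and 193 CPM in the Mib1 mutant pools, against 205, 205 and 192 CPM in the Cre control pools, the same arrangement (log2 fold change -0.14, SE 0.10, adjusted p = 0.577). E2f1 had 28.2, 38.8 and 40.3 CPM in the Mib1 mutant pools, against 42.3, 38.8 and 38.6 CPM in the Cre control pools. Again 1 of 3 Mib1 mutant pools lay below the Cre control range (log2 fold change -0.16, SE 0.11, adjusted p = 0.580).

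**Figure D3:**
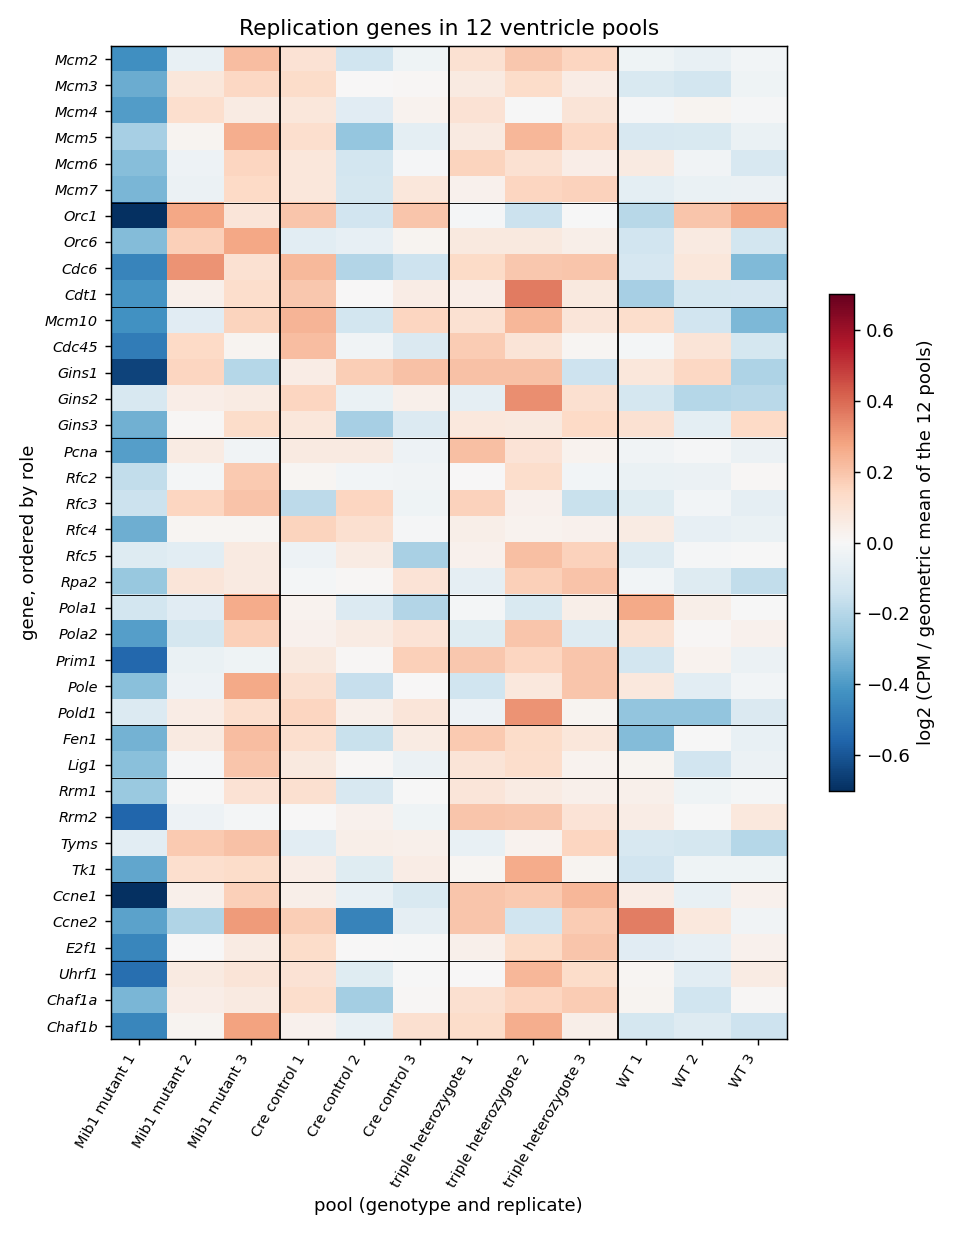
Level of each of the 38 genes (rows, by role) in each pool (columns, by genotype and replicate), as the log2 ratio of CPM to the gene's geometric mean over the 12 pools. Mib1 mutant replicate 1 is the lowest of the 12 pools for 30 of 38 genes.

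Mib1 mutant replicate 1 held low values across the whole set. It lay below its group's mean CPM for 38 of 38 genes. Replicates 2 and 3 lay above that mean, which includes the low pool, for 31 and 37. Of all genes tested, 49.7%, 50.6% and 50.8% lay above their group's mean log2 level in replicates 1, 2 and 3. Replicate 1 was the lowest of all 12 pools for 30 of 38 genes, beside 16.2% of all genes tested and 12 of 30 mitotic genes. Relative to the mean of replicates 2 and 3, its median over the 38 genes was 74.3%, beside 89.6% over the mitotic genes and 99.5% over all genes. The lowest ratios were those of Orc1 (53.4%), Ccne1 (56.6%), Cdc6 (62.6%) and Gins1 (64.5%), and the highest those of Gins2 (89.2%) and Rfc5 (94.2%), another clamp loader subunit. Orc1, Gins2 and Rfc5 are among the genes that share exonic bases with an opposite-strand gene. That gene had more reads on average than Gins2 and Rfc5, but fewer than Orc1, and its part in these ratios was not tested. Ccne1, cyclin E1, had 12.5, 21.2 and 23.2 CPM in the Mib1 mutant pools, against 21.3, 19.9 and 19.2 CPM in the Cre control pools. Uhrf1 had 70.6, 106 and 108 CPM in the Mib1 mutant pools, against 109, 95.9 and 102 CPM in the Cre control pools. In both genes the first Mib1 mutant pool was the lowest of the 12. The median coefficient of variation over the 38 genes was 18.2% in the Mib1 mutant, 6.61% in the Cre control, 5.57% in the triple heterozygote and 4.46% in WT. For genes over 10 CPM it was 9.24%, 6.64%, 7.93% and 5.58% in the same 4 groups. Genes with E2F-type promoter letters, such as Mcm6, Cdc6 and Orc1 printed above, had a median ratio of 76.3% (13 genes), and those without them 72.1% (19 genes).

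Without that pool, 27 of 38 fitted values for the Mib1 mutant relative to the Cre control were positive and 11 negative, with a median log2 fold change of 0.07, 2 higher at an unadjusted p under 0.05 beside 5.3% of all genes, and 0 called. Leaving out other Mib1 mutant pools moved the values the other way. Without replicate 3 the median was -0.15 with 35 negative, and 6 genes were lower at an unadjusted p under 0.05 beside 6.02% of all genes. Without replicate 2 the median was -0.09 with 29 negative, and 5 genes were lower beside 9.41%. Without Cre control replicate 2 the median was also -0.09, with 31 negative, and without Cre control replicate 1 it was -0.01, with 21 negative. None of the 38 was called in these fits (edgeR). Leaving out replicate 1 of both the Mib1 mutant and the Cre control, the pools with little Xist, gave a median of 0.11 with 32 positive, and 0 called. The summed level of the 38 genes was 1873, 2412 and 2580.3 CPM in the Mib1 mutant, against 2518, 2287 and 2377 CPM in the Cre control. The means were 2289 ± 369.5 and 2394 ± 116 CPM (SD, n = 3 each), and their ranges overlapped. Cre control replicate 1 had the highest sum of its group, so the pools with little Xist lay at opposite ends of their groups. Of the 6 cardiomyocyte markers, 5 had negative fitted values with all pools in the fit, with a median log2 fold change of -0.18. At an unadjusted p under 0.05, 3 were lower and 0 higher, beside 6.65% and 7.35% of all genes, and 0 were called (edgeR). The 6 leukocyte markers also lay lower, at a summed 37.8 to 50.1 CPM in the Mib1 mutant against 60.8 to 80.3 CPM in the Cre control. Of the 6, 2 were called lower, beside 1.5% of all genes called in either direction. The 6 fibroblast and valve markers summed to 4631 to 5733 CPM in the Mib1 mutant against 4222 to 4286 CPM in the Cre control, with 0 called. Of 6 smooth muscle and pericyte markers, 1 was called higher (edgeR adjusted p = 0.000179). The list was mixed, with log2 fold changes from -1.37 to 1.37, 4 positive and 2 negative. The endothelial and endocardial markers summed to 879.6 to 1053 CPM in the Mib1 mutant against 863 to 987 CPM in the Cre control, with 0 called. The part of these cell types in the replication gene values was not tested.

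In the triple heterozygote, 34 of 38 genes had positive fitted values against WT, with a median log2 fold change of 0.15 beside 0.00 over all genes. The pools did not overlap for 21 of 38 genes, all higher in the triple heterozygote, beside 7.67% of all genes higher and 9.19% lower. None of the 38 passed the test at an adjusted p of 0.05, where 0.0215% of all genes did (edgeR), and 0 were called by DESeq2 or limma-voom. At an unadjusted p under 0.05, 3 genes were higher (Pold1, Gins2 and Cdt1) and 0 lower, beside 3.82% and 4.84% of all genes. The exceptions with negative values were Orc1 (-0.16), Pola1 (-0.13), Pola2 (-0.02) and Ccne2 (-0.07). Fitting these 6 libraries alone, where the spread of the Cre pools does not enter, put 19 of 38 genes at an unadjusted p under 0.05 beside 5.85% of all genes, all higher, and 0 passed adjustment. Leaving out Mib1 mutant replicate 1 from the fit of all groups gave 20 of 38 beside 5.33%, and leaving out replicate 2 or 3 gave 6 beside 4.93% and 9 beside 4.56%. Without replicate 2 of the triple heterozygote the count was 1 of 38 beside 1.83%, and without its replicate 1 it was 7 beside 4.69%. None of the 38 was called in these fits.

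Summed over the 38 genes, the level was 2541, 2613 and 2524 CPM in the triple heterozygote, against 2364, 2318 and 2329 CPM in WT. All 3 triple heterozygote sums lay above all 3 WT sums, with means of 2559 ± 47.1 and 2337 ± 24.2 CPM (SD, n = 3 each), a difference of 9.52%. A triple heterozygote pool was the highest of the 12 for 18 of 38 genes and the lowest for 0, and a Mib1 mutant pool was the highest for 13. By replicate, the triple heterozygote pools were highest for 4, 7 and 7 of the 38, beside 8.24%, 11.2% and 6.37% of all genes. They were lowest for 0 each, beside 9.73%, 10.9% and 5.97% of all genes. The 30 mitotic genes summed to 3349 to 3743 CPM in the triple heterozygote and 3334 to 3679 CPM in WT, ranges that overlapped.

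**Figure D4:**
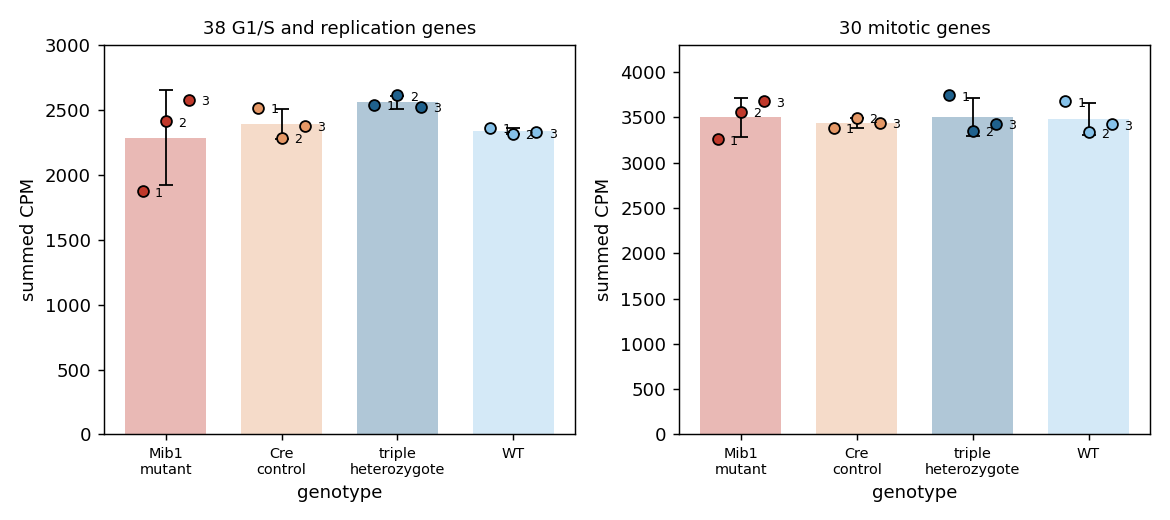
Summed CPM (vertical axis) of the 38 replication genes and of 30 mitotic genes in each pool, with numbered points for replicates, bars for the mean and error bars for the SD (n = 3). The 3 triple heterozygote sums of the replication genes lie above the 3 WT sums, and Mib1 mutant replicate 1 is the lowest pool at 1873 CPM.

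By role, pools without overlap were found for all 4 nucleotide synthesis genes, both Okazaki fragment genes, 4 of 6 MCM genes, 2 of 3 chromatin genes, 2 of 3 G1/S regulators, 2 of 4 licensing genes, 2 of 5 polymerase genes, 2 of 6 clamp and loader genes and 1 of 5 helicase activation genes. All were higher, beside 7.67% of all genes, and whether the roles differed was not tested. Pold1, the catalytic subunit of the polymerase that copies the lagging strand, had 38.02, 48.4 and 39.4 CPM in the triple heterozygote pools, against 32.1, 32.2 and 36.3 CPM in the WT pools. The lowest triple heterozygote pool lay above the highest WT pool (log2 fold change 0.33, SE 0.10, adjusted p = 0.559). Gins2, another GINS subunit, had 20.8, 27.2 and 23.4 CPM in the triple heterozygote pools, against 19.9, 18.9 and 19.0 CPM in the WT pools. The gap between the groups was narrow and replicate 2 of the triple heterozygote was the highest (log2 fold change 0.32, SE 0.10, adjusted p = 0.559). Cdt1, which loads the MCM ring, had 35.4, 44.1 and 36.0 CPM in the triple heterozygote pools, against 29.1, 31.5 and 31.6 CPM in the WT pools. The groups did not overlap, and replicate 2 of the triple heterozygote was again the highest (log2 fold change 0.33, SE 0.12, adjusted p = 0.565). Mcm5 had 89.0, 100.1 and 94.3 CPM in the triple heterozygote pools, against 79.1, 79.3 and 82.5 CPM in the WT pools, without overlap (log2 fold change 0.24, SE 0.11, adjusted p = 0.577). Rrm2 had 243, 242 and 227 CPM in the triple heterozygote pools, against 221, 212 and 224 CPM in the WT pools. Its groups also did not overlap, though the gap was small (log2 fold change 0.12, SE 0.11, adjusted p = 0.739). Mcm6 had 176, 170.1 and 163 CPM in the triple heterozygote pools, against 165, 155 and 146 CPM in the WT pools, and 1 triple heterozygote pool lay inside the WT range. Lig1 had 85.4, 87.2 and 81.6 CPM in the triple heterozygote pools, against 81.2, 73.1 and 77.9 CPM in the WT pools, and Tyms, thymidylate synthase, had 31.5, 33.1 and 36.2 CPM in the triple heterozygote pools, against 30.2, 29.9 and 28.4 CPM in the WT pools. In both, every triple heterozygote pool lay above every WT pool, though the gap was small for Lig1 (81.6 against 81.2 CPM). Orc6 had 28.9, 28.9 and 28.4 CPM in the triple heterozygote pools, against 25.1, 28.8 and 25.2 CPM in the WT pools, and these groups overlapped narrowly.

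Among the other genes of these roles, Mcm2 had 121, 128 and 125 CPM in the triple heterozygote pools, against 109.7, 108 and 111 CPM in the WT pools. Cdc6 had 23.6, 24.5 and 24.6 CPM in the triple heterozygote pools, against 19.8, 22.7 and 17.3 CPM in the WT pools. Pcna had 227, 209.9 and 199 CPM in the triple heterozygote pools, against 193, 195 and 191 CPM in the WT pools. In these 3 genes the groups did not overlap, though the gap was small for Cdc6 and Pcna. Prim1 had 37.9, 37.0 and 38.05 CPM in the triple heterozygote pools, against 30.4, 33.9 and 32.3 CPM in the WT pools, and E2f1 had 39.7, 42.5 and 44.3 CPM in the triple heterozygote pools, against 36.6, 37.2 and 39.5 CPM in the WT pools. Both were higher in every triple heterozygote pool than in any WT pool, though the gap was small for E2f1 (39.7 against 39.5 CPM). Neither passed the test (log2 fold change 0.22, SE 0.11, adjusted p = 0.587 for Prim1, and 0.16, SE 0.11, adjusted p = 0.657 for E2f1). Uhrf1 had 102, 119.8 and 111 CPM in the triple heterozygote pools, against 103, 96.9 and 106 CPM in the WT pools, with 1 triple heterozygote pool inside the WT range. Orc1 had 4.54, 4.11 and 4.56 CPM in the triple heterozygote pools, against 3.99, 5.22 and 5.51 CPM in the WT pools, and Pola1 had 41.9, 39.3 and 43.5 CPM in the triple heterozygote pools, against 50.8, 43.6 and 42.2 CPM in the WT pools. In this pair of genes, whose promoters hold E2F-type letters, the groups overlapped and the fitted values were negative. Over the 13 genes with those letters the median log2 fold change was 0.13, and over the 19 without them 0.17.

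**Figure D5:**
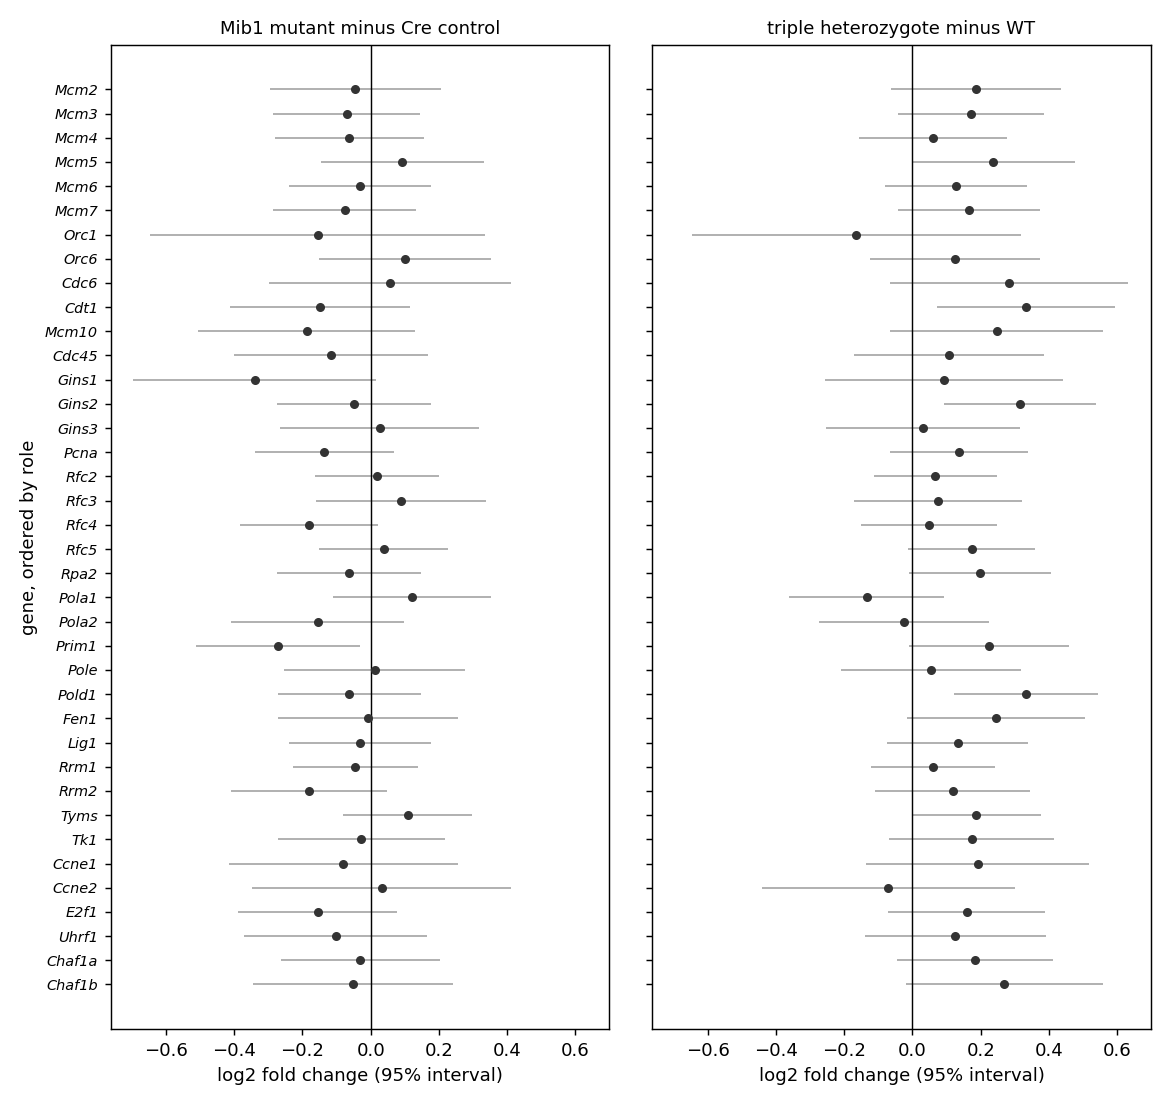
Log2 fold change with its 95% interval (edgeR, horizontal axis) of each of the 38 genes (rows, by role), for the Mib1 mutant relative to the Cre control and for the triple heterozygote relative to WT. In the triple heterozygote 34 of 38 values are positive, and in the Mib1 mutant 11 of 38.

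Erythroid markers lay higher in the same comparison. Summed over 9 genes they were at 7184 to 8402 CPM in the triple heterozygote against 4414 to 5181 CPM in WT. Of the 9, 8 did not overlap, all higher, beside 7.67% of all genes. By edgeR 2 were called higher, beside 0.0215% of all genes called in either direction. In the Mib1 mutant they lay at 3587 to 4892 CPM against 4488 to 5146 CPM in the Cre control. The 6 leukocyte markers summed to 72.4 to 77.4 CPM in the triple heterozygote against 57.9 to 67.0 CPM in WT, with every pool higher and 0 markers called. The 6 endothelial and endocardial markers summed to 912 to 973 CPM in the triple heterozygote against 979.5 to 1027 CPM in WT, with every pool lower. Pools did not overlap for 3 of 6 markers, all lower, beside 9.19% of all genes, and 0 were called. Liver genes were near 0 in the triple heterozygote, at a summed 0.542 to 1.19 CPM, and 2 of 5 passed the filter. The WT pools had 4.25, 22.0 and 1.89 CPM, so the top value was 1 pool. The Mib1 mutant lay at 0.380 to 0.603 CPM and the Cre control at 0.193 to 4.73 CPM. The part of blood, endothelial and other cells in the replication gene values was not tested.

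The difference between the effects in the Mib1 mutant and in the triple heterozygote was tested directly. It was negative for 34 of 38 genes, with a median of -0.22 on the log2 scale beside 0.00 over all genes, and 0 of 38 were called beside 0.516% of all genes (edgeR, with 0 also by DESeq2 and limma-voom). At an unadjusted p under 0.05 there were 4 lower, namely Prim1 (log2 fold change -0.50, SE 0.16, adjusted p = 0.217), Pold1 (-0.39), Cdt1 (-0.48) and Gins2 (-0.36), and 0 higher, beside 6.17% and 7.63% of all genes. The interval, which rests on the same shared spread, excluded a 1.5-fold difference for 22 of 38. Without Mib1 mutant replicate 1 the median was -0.08 with 29 negative and 4 lower at an unadjusted p under 0.05 (beside 5.54% of all genes), and without Cre control replicate 1 as well it was -0.04 with 25 negative. Without Mib1 mutant replicate 3 the median was -0.30 with 37 negative and 18 of 38 lower (beside 5.78%). Without Mib1 mutant replicate 2 it was -0.28 with 36 negative and 9 lower (beside 10.1%), and without triple heterozygote replicate 2 it was -0.21 with 2 lower (beside 4.2%). None of the 38 was called in these fits. In the same test, 5 of 9 erythroid markers and 1 of 6 leukocyte markers were called lower, and 1 of 6 smooth muscle and pericyte markers was called higher. The smooth muscle and pericyte values ran from -0.94 to 1.10, with 5 positive and 1 negative.

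The Cre control was also set against WT, using the same WT pools as the triple heterozygote. None of the 38 genes was called, beside 0.279% of all genes, by edgeR, DESeq2 or limma-voom. Fitted values were positive for 30 of 38, with a median of 0.04, and pools did not overlap for 7, all higher, beside 8.9% of all genes higher and 10.2% lower. Pold1 was the 1 gene at an unadjusted p under 0.05, beside 4.23% of all genes higher and 4.2% lower. Without Mib1 mutant replicate 1 in the fit the count was 4 beside 5%, and without Cre control replicate 2 the median was 0.08. It had 43.2, 39.9 and 41.3 CPM in the Cre control pools, against 32.1, 32.2 and 36.3 CPM in the WT pools, so the Cre control lay above WT as the triple heterozygote did (log2 fold change 0.31, SE 0.10, adjusted p = 0.370). Gins2 (0.22), Cdt1 (0.24) and Pola1 (-0.20), the catalytic subunit of the polymerase that begins each new strand, came next by p, at adjusted p = 0.601, 0.629 and 0.652.

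Other cell cycle genes were read from 5 further lists holding 113 genes, of which 111 were tested. None was called in any of the 4 comparisons by edgeR. The Cdk inhibitor Cdkn1c was the nearest in the triple heterozygote (log2 fold change 0.37, SE 0.09, adjusted p = 0.326), and it was called there with no filter on low counts (adjusted p = 0.0264) and by DESeq2 (adjusted p = 0.00899). Those settings called 54 and 22 of all genes in that comparison. Without Mib1 mutant replicate 2, Gmnn was called lower in the Mib1 mutant (log2 fold change -0.40, adjusted p = 0.0493), and Cdk6, a partner of D-type cyclins, was called in the difference between effects (1.02, adjusted p = 0.0480). In that fit 415 of all 14183 genes tested were called for the Mib1 mutant and 233 for the difference. Among 30 mitotic genes, 19 had positive values in the Mib1 mutant (median 0.02) and 18 in the triple heterozygote (median 0.04), and in each comparison 3 did not overlap, all higher, beside 8.86% of all genes in the Mib1 mutant and 7.67% in the triple heterozygote. Aurka and Tpx2, a spindle kinase and its activator, had log2 fold changes of 0.16 and 0.14 in the Mib1 mutant, and the mitotic kinase Plk1 and the ubiquitin-conjugating enzyme Ube2c had 0.24 and 0.22 in the triple heterozygote. Among 37 other genes of the replication machinery, 14 were positive in the Mib1 mutant (median -0.06) and 32 in the triple heterozygote (median 0.07). Their pools did not overlap for 2 higher and 1 lower in the triple heterozygote, beside 7.67% and 9.19% of all genes. Gmnn, geminin, the inhibitor of Cdt1, had a log2 fold change of -0.30 in the Mib1 mutant, and Rnaseh2c, a subunit of the ribonuclease that removes RNA from DNA, had 0.40 in the triple heterozygote. Among 16 other nucleotide and histone supply genes, 5 were positive in the Mib1 mutant (median -0.08) and 11 in the triple heterozygote (median 0.06). These summed to 1155, 1325 and 1401 CPM in the Mib1 mutant pools, against 1289 to 1371 CPM in the Cre control, so again only replicate 1 lay below that range. Among 23 cyclin, Cdk, E2F and retinoblastoma family genes, 10 were positive in the Mib1 mutant (median -0.03) and 13 in the triple heterozygote (median 0.04). Cdk2, the partner of cyclin E, had -0.13 in the Mib1 mutant and 0.23 in the triple heterozygote. Of 5 Cdk inhibitors tested, 2 were positive in the Mib1 mutant (median -0.05) and 3 in the triple heterozygote (median 0.05).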

How the data were processed

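Single 60-base reads from polyA-selected RNA were turned by the authors into expected counts per gene with RSEM on GRCm38, per the submitters' processing notes and the deposited table. The expected counts were rounded to whole numbers, since 9.64% of values were not whole. Library totals were 10103548 to 22157720, which sets the precision of low genes. Columns were matched to samples by name; those named MUT were taken as the triple heterozygote. Genes were filtered (filterByExpr), scaled by TMM and tested with edgeR 4.0.16 (quasi-likelihood F test, all 12 libraries, 4 groups, 8 residual degrees of freedom, common biological coefficient of variation 0.0982), with Benjamini-Hochberg adjustment over 13964 genes and a threshold of 0.05. CPM uses TMM-scaled totals, and gene lengths are those of GENCODE M21. DESeq2 1.42.0, limma 3.58.1, other filters, scalings, a replicate block, the sex mix and left-out pools were alternatives, and the model was tested on simulated data. Counts of replicates differed beyond sampling noise, with chi-square values of 2.06 to 13.7 per degree of freedom. The sources used here do not say whether pools shared litters. The members and all lists were chosen with earlier results of these data known. Genes named beyond the lists' counts were those with the smallest p in each comparison and the highest level per length in each role; Mcm2, Ccne1, Orc1, Cdc6, Rfc5, Tyms and the genes with negative values were chosen after their values were seen. The 113 other cell cycle genes and 8 marker lists came from textbook knowledge; their sums are in the report or the closing section.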

Additional observations from a re-analysis of the deposited data

How the results depend on the processing

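No replication gene passed the threshold in any of the 4 comparisons under the alternatives run (0 of 3305 values over 22 settings). The members' median kept its sign under every alternative for the triple heterozygote against WT; in the Mib1 mutant comparison it changed sign without replicate 1, as given in the report. Leaving out 1 pool at a time moved the median between -0.15 and 0.07 for the Mib1 mutant, 0.13 and 0.18 for the triple heterozygote, -0.30 and -0.08 for the difference, and 0.03 and 0.08 for the Cre control against WT. Counts of all genes called, against 210 for the Mib1 mutant, 3 for the triple heterozygote, 72 for the difference and 39 for the Cre control against WT, were 476, 54, 246 and 144 with no filter on low counts, and 416, 22, 167 and 82 with DESeq2. With only the libraries compared they were 93, 10 and 68 (no difference could be fitted). Leaving out 1 pool gave 116 to 415, 1 to 6, 28 to 233 and 23 to 46. Without both pools of 1 sex, an alternative chosen after seeing the data, the first 3 counts were 110, 7 and 41. The triple heterozygote count was 5 with the sex mix as covariate and 1 without erythroid genes. Same-numbered pools of the Mib1 mutant and the Cre control deviated together weakly (correlations 0.049 to 0.256, all positive, against -0.263 to 0.162 for pools of different number). For the triple heterozygote with WT they did not (-0.0962 to 0.119, against -0.215 to 0.210). The sources used here do not say whether same-numbered pools shared litters, and the main fit did not pair them. The replicate block gave 318, 109 and 59 genes called for the Mib1 mutant, the difference and the Cre control, and 0 replication genes. The cause of these changes was not tested. Mib1 in the Cre control against WT was called under 4 settings and not in the main result. Depth limits mainly Orc1.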

Other observations

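Some marker lists were not described above. Fibroblast and valve genes summed to 3793 to 6119.6 CPM in the triple heterozygote against 3780.4 to 4794 CPM in WT. Smooth muscle and pericyte genes summed to 1389 to 2089 CPM in the Mib1 mutant against 1492 to 1590.2 CPM in the Cre control, and to 1649 to 1771 CPM in the triple heterozygote against 1614 to 1659 CPM in WT. Epicardial genes summed to 168 to 185 CPM in the Mib1 mutant against 150.2 to 159 CPM in the Cre control, and to 152 to 201 CPM in the triple heterozygote against 144 to 175 CPM in WT. Mib1 itself, in the Cre control against WT, had a log2 fold change of -0.37 (SE 0.09, edgeR adjusted p = 0.15).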
